A study of Mus musculus with 12 samples.

Results

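The postsynaptic density of excitatory synapses is held together by scaffold proteins of the membrane-associated guanylate kinase family and carries CaMKII, the calcium- and calmodulin-dependent kinase, at very high density. The scaffolds PSD-95 (Dlg4), PSD-93 (Dlg2), SAP102 (Dlg3) and SAP97 (Dlg1) bind the tails of glutamate receptors and adhesion proteins through PDZ domains, and PSD-95 reaches Shank proteins through the SAPAP linkers. Calcium entering through NMDA receptors activates CaMKII, which autophosphorylates, moves into the density and is required for long-term potentiation in the hippocampus. Densin (Lrrc7), a scaffold with leucine-rich repeats and a PDZ domain, binds the kinase and Shank.

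The genes described here are the 4 Dlg genes Dlg1, Dlg2, Dlg3 and Dlg4, the densin gene Lrrc7, and the 4 CaMKII genes Camk2a, Camk2b, Camk2g and Camk2d. They were matched by Ensembl gene identifier, and all 9 were listed in each of the 12 libraries, among 24590 genes listed in any library. All 9 had a mean of at least 1 FPKM and entered the test with 14301 genes. FPKM counts sequenced fragments relative to the length of the transcript and the size of the library, so that levels can be set side by side between genes.

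Poly(A) RNA was sequenced from the hippocampi of 12 mice, 3 in each of 4 groups, to compare Shank2 knockouts with wild types. The exon 6-7 line carries a deletion of exons 6 and 7 of Shank2, itself a postsynaptic scaffold gene, and the exon 7 line a deletion of exon 7; each line gave 3 knockout mice and 3 wild-type control mice. The strain of all 4 groups is given as mixed C57BL/6J and C57BL/6N, and the labels describe male littermates aged 8 to 15 weeks for the behavioural work and give no separate age for the sequenced tissue. No promoter or Cre is named for either deletion, and mice were not pooled. Each mouse has its own number, so the spread between replicates is that between animals and their libraries.

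As a check of the labels, Shank2 stood at 14.4 ± 0.576 FPKM in exon 6-7 wild types and 6.46 ± 0.483 in knockouts (SD, n = 3 each), with log2 fold change -1.04 (limma, adjusted p = 0.0141). In the exon 7 line its gene-level value was 40.8 ± 4.24 in wild types and 40.4 ± 6.29 in knockouts, so that the genotype of that line could not be checked at gene level. The 11 markers of hippocampal excitatory neurons, among them Prox1 of dentate granule cells and Wfs1 of CA1 pyramidal cells, were all above 0 in every mouse, with a summed level of 738 to 850 FPKM. Markers of choroid plexus and ependyma summed to between 57.7 FPKM in 1 exon 6-7 wild type (mouse WT865, in which Ttr was 35.6 FPKM) and 8655 FPKM in another wild type of that line. In 4 libraries, 1 per group (mice WT778, KO776, WT628 and KO969, set A), 1 gene with 218 to 435 FPKM in the other 8 (set B) was not listed, and results that these sets touch are given within each set. In whole tissue, fewer cells of a type and less RNA per cell cannot be told apart.

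Before the levels, 3 sequences show how alike Camk2b, Camk2g and Camk2d are around their autophosphorylation site and where their transcripts can nonetheless be told apart. The stretch of Camk2a is not shown. Each sequence is 60 coding bases, 5′ to 3′, within 1 exon of a GENCODE M21 transcript. The capitals mark the codon of the threonine whose autophosphorylation keeps the kinase active after calcium falls. The stretches lie at chr11:5988961-5989020 on the minus strand (Camk2b), chr14:20760403-20760462 on the minus strand (Camk2g) and chr3:126797720-126797779 on the plus strand (Camk2d), on GRCm38.
Camk2b: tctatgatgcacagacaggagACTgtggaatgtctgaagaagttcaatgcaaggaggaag
Camk2g: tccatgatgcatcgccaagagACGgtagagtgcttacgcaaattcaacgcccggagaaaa
Camk2d: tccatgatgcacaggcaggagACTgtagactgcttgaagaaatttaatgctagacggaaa
Camk2b and Camk2d differ at 12 of the 60 bases, Camk2g and Camk2d at 17, and Camk2b and Camk2g at 20. The codon in capitals ends in a different base in Camk2g than in the other two. Over the longest transcripts, 31-base windows that also occur in a transcript of another gene made up 0.0910% of Camk2d, 0.904% of Camk2b, 1.54% of Camk2a and 0.578% of Dlg2. For Dlg4 the share was 6.34%, and for Dlg1, Dlg3, Lrrc7 and Camk2g no window was shared. The sources used here do not say how fragments that match more than 1 gene, or the other strand, were counted, so the Dlg4 level is the least certain of the 9 in that respect.

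Camk2a, the alpha subunit of forebrain excitatory neurons, had the highest level of the 9 genes in all 4 groups. Camk2b, the beta subunit that binds filamentous actin, came next, followed by Dlg4, the main scaffold of the mature postsynaptic density. In the exon 6-7 line the order then ran Dlg3, Camk2g, Dlg1, Camk2d, Dlg2 and Lrrc7, by mean scaled FPKM in both genotypes. In the exon 7 line it ran Dlg2, Dlg3, Camk2g, Dlg1, Camk2d and Lrrc7. Dlg2 was thus at rank 8 in the exon 6-7 line and rank 4 in the exon 7 line. Neither order is corrected for the trend of the line difference with transcript length. The ranges of neighbours in these orders did not overlap, except those of Camk2g and Dlg1 in the exon 7 wild types. Averaged over the 12 libraries, Camk2a stood at 702 FPKM, above 99.6% of the genes tested, Camk2b at 358 FPKM and Dlg4 at 243 FPKM, whereas Lrrc7 at 9.09 FPKM was above 43.2%.

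**Figure D1:**
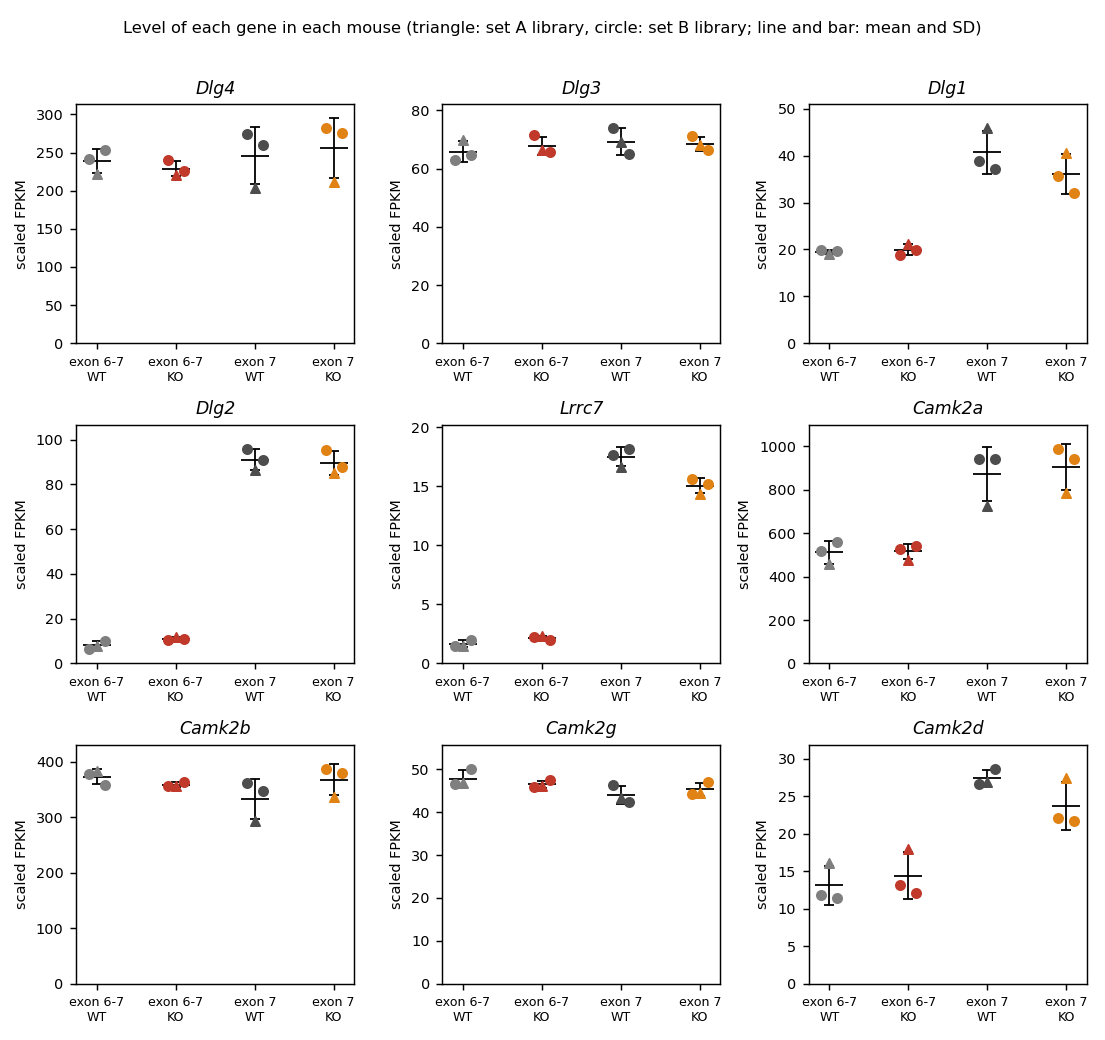
Level of each of the 9 genes in each mouse, in FPKM scaled between libraries (y axis from 0, a scale per gene), with exon 6-7 and exon 7 wild types (WT) and knockouts (KO) along the x axis; triangles are set A mice and circles set B mice, and lines and bars are the mean and SD of 3 mice. Dlg2 lies between 6.30 and 11.8 FPKM in exon 6-7 mice and between 84.9 and 96.0 FPKM in exon 7 mice, while Dlg3 lies between 63.1 and 73.9 FPKM in both.

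The first question of the design is what the deletion of exons 6 and 7 did to these genes. None of the 9 passed the test in that line, against 0.014% of all genes tested (2 of 14301; limma with Benjamini-Hochberg adjustment, threshold 0.05). The largest difference was in Dlg2, which in the knockouts was 1.37 times its wild-type mean. Lrrc7 was second, at 1.31 times. The other 7 genes differed by -0.06 to 0.13 on the log2 scale, where changes are of log2(scaled FPKM + 1) throughout and understate those of low genes.

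Dlg2 encodes PSD-93, which like PSD-95 clusters NMDA receptors and potassium channels. Its scaled level was 7.70, 6.30 and 10.2 FPKM in the exon 6-7 wild types (mice WT778, WT809 and WT865) and 11.8, 10.4 and 10.98 FPKM in the knockouts (KO776, KO777 and KO864). All 3 knockouts were above all 3 wild types, the highest wild type and the lowest knockout being close together. Wild types averaged 8.08 ± 1.996 FPKM and knockouts 11.1 ± 0.719 FPKM (SD, n = 3 each). The log2 fold change was 0.43 (SE 0.132, 95% interval 0.14 to 0.72). Its p was 0.00728 unadjusted and 1 after adjustment in limma, and 0.1 in the exact two-sided permutation test, the smallest that 3 mice against 3 can give. Of all genes tested, 4.11% had an unadjusted p under 0.05 in this comparison, and in 11.3% the 2 genotypes did not overlap. Within set A the log2 difference was 0.56 and within set B 0.37. It was 0.60 without WT865, the mouse with little choroid plexus signal, and 0.29 without WT809, the wild type with the lowest Dlg2.

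Lrrc7 was at 1.51, 1.49 and 1.99 FPKM in the exon 6-7 wild types and 2.28, 2.27 and 1.99 FPKM in the knockouts. The highest wild type and the lowest knockout differed by less than the rounding, so that the groups overlapped. The log2 fold change was 0.26 (SE 0.0964, 95% interval 0.05 to 0.47), with an unadjusted limma p of 0.0202, an adjusted p of 1 and an exact permutation p of 0.2.

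The remaining scaffolds of the exon 6-7 line differed by less than the spread between mice. Dlg4 averaged 239 ± 15.6 FPKM in wild types and 229 ± 9.73 FPKM in knockouts, a log2 fold change of -0.06 (95% interval -0.35 to 0.23). For Dlg3, the scaffold that is most prominent before maturity, the log2 fold change was 0.04 (95% interval -0.13 to 0.21), and for Dlg1, which traffics AMPA receptors, 0.03 (95% interval -0.20 to 0.25). Each of these genes overlapped between genotypes.

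The kinase genes of that line overlapped as well. Camk2a averaged 513 ± 52.9 FPKM in wild types and 516 ± 33.2 FPKM in knockouts, and its log2 fold change of 0.01 had a 95% interval of -0.26 to 0.29. Camk2b differed by -0.05 (95% interval -0.25 to 0.14), Camk2g by -0.04 (95% interval -0.19 to 0.11) and Camk2d by 0.13 (95% interval -0.22 to 0.47) on the log2 scale. With a term for the library set, the interval of Camk2a narrowed to -0.09 to 0.11 and that of Dlg4 to -0.16 to 0.04, and neither passed. The signs for Dlg1, Dlg4, Camk2a, Camk2b, Camk2g and Camk2d turned under at least 1 other scaling or with a mouse left out.

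Other tissue moved with genotype in this line, and its part in the Dlg2 and Lrrc7 values was not tested. All 9 markers of oligodendrocytes and myelin were lower in the knockouts, with a summed level of 5425 to 6740 FPKM in wild types and 4756 to 4876 FPKM in knockouts, and none of them passed the test. All 10 markers of choroid plexus and ependyma were higher in the knockouts, with summed levels of 57.7 to 8655 FPKM in wild types and 6777 to 8453 FPKM in knockouts, and again none passed. All 8 microglia markers were lower in the knockouts (median log2 fold change -0.15), with overlapping sums of 226 to 261 and 202 to 237 FPKM, and none passed.

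The deletion of exon 7 alone gave no call among the 9 genes either, against 0% of all genes tested (0 of 14301 by limma; 501 genes, or 3.5%, had an unadjusted p under 0.05, none of them a member). Lrrc7 was the member whose genotypes did not overlap, with a knockout mean of 0.861 of the wild-type mean, and it did not pass. Camk2b had the highest positive difference, 1.10 times the wild-type mean. Dlg2, the gene with the largest difference in the other line, was at 0.982 of its wild-type mean here.

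Lrrc7 stood at 16.6, 17.6 and 18.2 FPKM in the exon 7 wild types (in the order WT628, WT993, WT999), and the knockouts KO969, KO990 and KO994 at 14.4, 15.6 and 15.2 FPKM. Every knockout was below every wild type, and 7.01% of all genes had genotypes that did not overlap. The log2 fold change was -0.20 (SE 0.0964, 95% interval -0.42 to 0.01; limma p = 0.0572 unadjusted, adjusted p = 1; exact permutation p = 0.1). The set A pair gave -0.20 and the set B mice -0.21. Cell type markers moved with genotype here as well, none of them past the test, and their part in the Lrrc7 value was not tested. All 9 myelin markers were lower in the knockouts, with sums of 5142 to 5340 FPKM in wild types and 4679 to 4991 FPKM in knockouts that did not overlap. Lower too were 7 of 8 microglia markers (sums of 152 to 169 and 150.3 to 156 FPKM), and 9 of 10 choroid plexus and ependyma markers were higher (sums of 1450.4 to 1752 and 1690.0 to 2329 FPKM). Of the 11 excitatory neuron markers 6 were above 0 and 5 below, with a median log2 fold change of 0.0014. The dentate marker C1ql2 differed by 0.49, but Prox1 of dentate granule cells by 0.0014. Fibcd1 of CA1 differed by -0.32, but Wfs1 of CA1 by -0.017.

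Dlg2 was at 86.5, 96.0 and 90.7 FPKM in the wild types and 84.9, 95.4 and 87.9 FPKM in the knockouts of the exon 7 line, with a log2 fold change of -0.03 (95% interval -0.32 to 0.26). The sign turned under other scalings. Dlg1 differed by -0.17 (95% interval -0.39 to 0.06), Dlg3 by -0.01 (95% interval -0.18 to 0.15) and Dlg4 by 0.06 (95% interval -0.23 to 0.34). All 4 Dlg genes overlapped between genotypes, and the signs for Dlg3 and Dlg4 turned under other settings as well.

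Dlg4 split by library set rather than by genotype in this line. It was at 204 FPKM in WT628 and 211 FPKM in KO969, the set A mice, and at 275 and 260 FPKM in the other wild types and 282 and 276 FPKM in the other knockouts. The set A mice were the lowest of each genotype. Camk2a did the same, at 727 and 787 FPKM in WT628 and KO969 and at 942 to 990 FPKM in the other 4 mice. Within set A the knockout differed from the wild type by 0.05 for Dlg4 and 0.11 for Camk2a on the log2 scale, and within set B by 0.06 and 0.03. Camk2d, a delta subunit best known from heart muscle, differed by 0.02 within set A and by -0.32 within set B, so that its pooled value of -0.21 (95% interval -0.55 to 0.14) came from set B. Camk2b differed by 0.14 (95% interval -0.05 to 0.34) and Camk2g by 0.04 (95% interval -0.11 to 0.19). With a term for the library set, 4 of the 9 genes had an unadjusted limma p under 0.05 in this line, against 8.12% of all genes, and none passed after adjustment (adjusted p 0.514 to 0.607). These were Camk2b (0.14, 95% interval 0.05 to 0.24), Dlg1 (-0.17, -0.31 to -0.03), Camk2d (-0.21, -0.38 to -0.03) and Lrrc7 (-0.20, -0.40 to -0.0041).

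**Figure D2:**
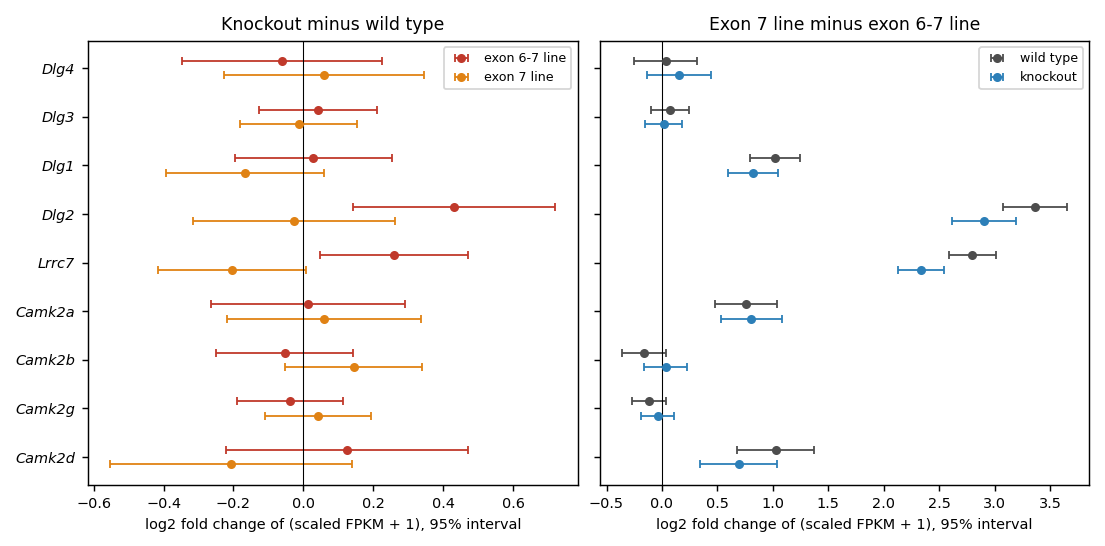
Log2 fold change of each gene with its 95% interval from limma, knockout minus wild type in each line (left) and exon 7 line minus exon 6-7 line in each genotype (right); the vertical line marks 0. On the left the intervals of Dlg2 (0.14 to 0.72) and Lrrc7 (0.05 to 0.47) in the exon 6-7 line lie above 0; on the right Dlg2 and Lrrc7 lie between 2.33 and 3.36.

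The knockout effects of the 2 lines were compared by the interaction term, and none of the 9 genes passed (1 of 14301 genes, 0.00699%, did). Lrrc7 had the smallest p of the members: its effects of 0.26 and -0.20 differed by 0.46 (SE 0.136, 95% interval 0.16 to 0.76), with a limma adjusted p of 0.9997. For Dlg2 the difference was also 0.46 (SE 0.187, 95% interval 0.05 to 0.87), with the same adjusted p in limma. Both were among the 3.99% of all genes with an unadjusted limma value under 0.05. With a term for the library set, Camk2b and Camk2d joined them, against 10.6% of all genes, and none of the 4 passed after adjustment. Averaged over both lines, the knockout effects of the 9 genes ran from -0.07 (Dlg1) to 0.20 (Dlg2), and 0 passed (2 genes, 0.014%, did over the whole table). The exact permutation p of the averaged Dlg2 effect, over 400 relabellings within lines, was 0.165.

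Lines of wild-type mice are a further comparison that the 4 groups allow, and here the 9 genes parted. Dlg2, Lrrc7, Dlg1, Camk2d and Camk2a were higher in the exon 7 line, in both genotypes, while Dlg3, Dlg4, Camk2b and Camk2g did not pass. That is 5 of 9 called in each genotype, against 66.5% of all genes called between the wild types and 61.2% between the knockouts, and nothing is read from the difference between these shares. The members' count depended on the setting: between the wild types it was 8 with quantile normalization (9426 of 14301 genes called), 7 with length and GC trends removed (6726 of 14141) and 7 with FPKM as deposited (9614 of 14301). Called higher were 33.7% of all genes between the wild types and 31.2% between the knockouts. The labels give no date or batch of preparation, so that line and any such batch cannot be told apart.

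Dlg2 averaged 91.0 ± 4.76 FPKM in the exon 7 wild types, 11.3 times the 8.08 ± 1.996 FPKM of the exon 6-7 wild types, and 8.08 times as much between the knockouts. The log2 fold changes were 3.36 (SE 0.132, adjusted p = 2.52e-08 in limma) and 2.91. Among all genes tested, 51 differed more between the wild types in either direction. Lrrc7 was 10.5 times higher between the wild types, at 17.5 ± 0.795 against 1.66 ± 0.285 FPKM, and 6.90 times higher between the knockouts. Its log2 fold changes were 2.80 (SE 0.0964, adjusted p = 1.31e-08) and 2.33, with 98 genes differing more between the wild types. Both genes kept the difference within each library set, at 3.33 and 3.38 for Dlg2 and 2.81 and 2.79 for Lrrc7 (sets A and B, wild types).

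Dlg1 averaged 40.7 ± 4.55 FPKM in the exon 7 wild types and 19.6 ± 0.421 FPKM in the exon 6-7 wild types, a log2 fold change of 1.02 (adjusted p = 4.86e-06). Camk2d averaged 27.4 ± 1.10 and 13.1 ± 2.58 FPKM (log2 fold change 1.03, adjusted p = 0.000134), and Camk2a 872 ± 125 and 513 ± 52.9 FPKM (log2 fold change 0.76, adjusted p = 0.000240). In all 3 genes each exon 7 mouse was above each exon 6-7 mouse of the same genotype. Nothing particular to these genes is read from that, and the share of all genes without overlap between the lines is not given. Of all genes, 66.5% were called between the wild types and 61.2% between the knockouts. After the trends with transcript length and GC content were removed from the line difference, Dlg1 (0.14) and Camk2d (0.27) no longer passed, while Dlg2 (2.24, from 3.36), Lrrc7 (1.84, from 2.80) and Camk2a (0.44, from 0.76) did, at smaller differences.

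The other 4 genes did not pass between the wild types. Dlg4 averaged 246 ± 37.5 and 239 ± 15.6 FPKM (log2 fold change 0.03, 95% interval -0.25 to 0.32) and Dlg3 69.3 ± 4.49 and 65.9 ± 3.50 FPKM (0.07, 95% interval -0.10 to 0.24). Camk2b was at -0.16 (95% interval -0.36 to 0.03) and Camk2g, the gamma subunit known to carry calmodulin to the nucleus, at -0.12 (95% interval -0.27 to 0.03). The direction of these 4 depended on the scaling: quantile normalization put Dlg3, Dlg4, Camk2b and Camk2g at 0.31, 0.57, 0.39 and 0.07, and removal of the length and GC trends at -0.37, -0.80, -0.27 and -0.18.

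The line difference followed transcript length over the whole table. Across 14141 genes, which are not independent replicates, the Spearman correlation of the wild-type line difference was 0.66 with the length of the longest transcript, 0.55 with the span of the gene and -0.41 with GC content. Dlg2 and Lrrc7 have the longest transcripts of the 9 genes (7.81 and 7.32 kb) and the widest spans (1973 and 479 kb). In the decile of genes with the longest transcripts, which holds both, the median line difference was 1.116, and of its 1414 genes 11 were above Dlg2 and 27 above Lrrc7. Dlg4, with a transcript of 6.33 kb in the next decile, lay below that decile's median of 0.72. Dlg4 has a longer transcript than Dlg1 (6.14 kb), and their line differences were 0.03 and 1.02. With length and GC trends removed they were -0.80 and 0.14. These lengths are of the longest annotated transcript, which need not be the one expressed.

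**Figure D3:**
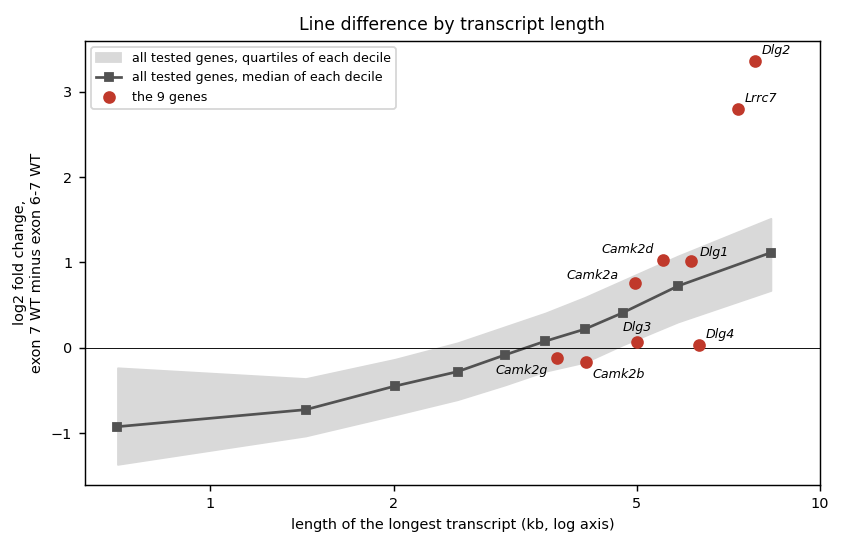
Log2 fold change between the wild types of the 2 lines (y axis) against the length of the longest transcript (kb, log axis); squares and band are the median and quartiles of all tested genes in each decile of length, placed at the decile's median length, and red points are the 9 genes. Dlg2 (3.36) and Lrrc7 (2.80) lie above the band, and Dlg4 (0.03) below it.

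The knockout effects ran with transcript length too, in opposite directions in the 2 lines (Spearman correlation across genes 0.35 for exon 6-7 and -0.18 for exon 7). The decile with the longest transcripts had a median effect of 0.07 in the first and -0.05 in the second. Dlg2 was exceeded by 11 and Lrrc7 by 69 of its 1414 genes in the exon 6-7 line. With length and GC trends removed, the exon 6-7 effect was 0.34 for Dlg2 and 0.19 for Lrrc7, and the exon 7 effect of Lrrc7 was -0.16.

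Because the genes of each family encode related proteins, their shares within a family were followed mouse by mouse. A ratio within a library does not depend on a single scaling factor for that library. It does keep any trend with transcript length, and the wild-type line difference ran with that length (Spearman correlation 0.66). Shares and ratios are not corrected for this trend, and its part in their line differences was not tested. Dlg4 made up 69.7, 73.1 and 72.8% of the summed FPKM of the 4 Dlg genes in the exon 6-7 wild types and 69.0, 70.4 and 70.1% in the knockouts. In the exon 7 line it made up 50.3, 56.8 and 57.4% in wild types and 52.2, 58.2 and 59.7% in knockouts, each lower than in any mouse of the other line. Dlg2 made up 2.42% ± 0.522 and 3.38% ± 0.320 of the sum in the exon 6-7 wild types and knockouts, and 20.4% ± 0.814 and 19.9% ± 0.988 in those of the exon 7 line (SD, n = 3 each). Between genotypes the Dlg4 share differed by -2.02 percentage points for the exon 6-7 mice (exact permutation p = 0.3) and by 1.86 for the exon 7 mice (exact permutation p = 0.5).

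Camk2a made up 54.1% ± 3.33 of the summed CaMKII level in the exon 6-7 wild types and 55.1% ± 1.62 in the knockouts, against 68.2% ± 1.34 and 67.4% ± 1.37 in the exon 7 line. Camk2b took most of the rest, at 39.5% and 38.4% in exon 6-7 mice and 26.2% and 27.4% in exon 7 mice. These are RNA levels, and the subunit proteins were not measured. In RNA, the alpha to beta ratio was 0.45 on the log2 scale in exon 6-7 wild types and 0.52 in knockouts. It was 1.38 in exon 7 wild types and 1.30 in knockouts. Between genotypes the exact permutation p was 0.7 and 0.2, and between lines it was 0.1 in each genotype, the smallest possible. Dlg4 relative to Camk2a moved by -0.07 between exon 6-7 genotypes (exact permutation p = 0.4) and by -0.0014 between exon 7 genotypes (exact permutation p = 1), where it was at -1.84 and -1.90 in the set A mice, inside or next to the range of the others.

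**Figure D4:**
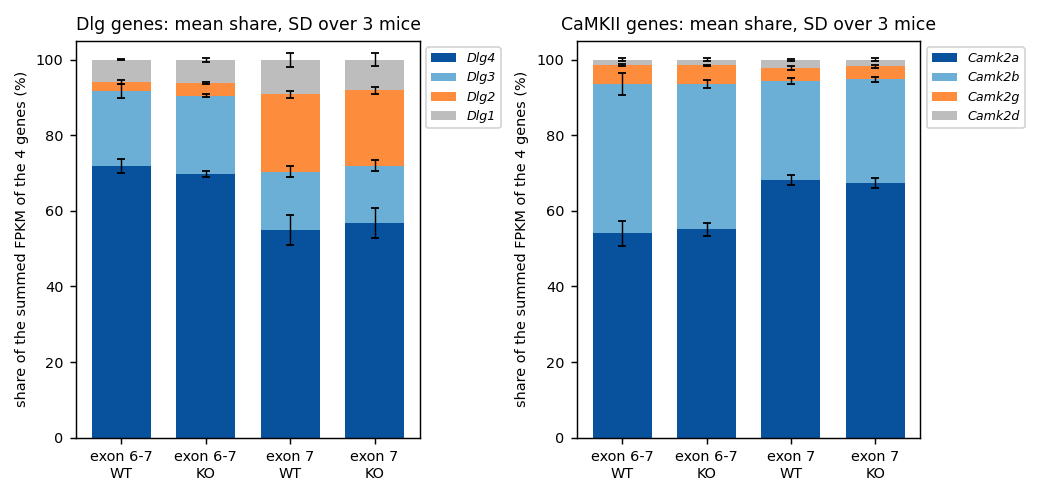
Share of each gene in the summed FPKM of the 4 Dlg genes (left) and the 4 CaMKII genes (right), in percent, as stacked bars of group means with the SD over 3 mice at the top of each segment. The Dlg2 share is 2.42 and 3.38% in exon 6-7 mice and 20.4 and 19.9% in exon 7 mice, and the Camk2a share 54.1 and 55.1% against 68.2 and 67.4%.

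How the 9 genes varied among mice of a line was described by correlation over the 12 libraries after subtracting each line's mean. Dlg4 and Camk2a ran together most closely (r = 0.92), then Dlg2 and Lrrc7 (r = 0.80) and Dlg4 and Camk2b (r = 0.78), while Dlg1 ran against Camk2b (r = -0.85) and Dlg4 (r = -0.77). The lines differed in these values: for Dlg2 and Lrrc7 r was 0.92 among the 6 exon 6-7 mice and 0.50 among the 6 exon 7 mice. For Dlg4 and Camk2a it was 0.75 and 0.98, for Dlg4 and Camk2b -0.21 and 0.90, for Dlg1 and Camk2b -0.32 and -0.90, and for Dlg1 and Dlg4 -0.32 and -0.82. The libraries share the set A and set B division, and these values carry no test. Among 9605 genes whose mean level reached 5 FPKM, the gene most like Dlg4 was Palm (paralemmin, a membrane-associated protein; r = 0.98), followed by Gtf2f1 (r = 0.97), and most like Camk2a was Syt17 (r = 0.98), followed by Smc1a (r = 0.98). Dlg2 was most like Ppig (r = 0.92) and Garem1 (r = 0.91), the latter at r = 0.21 among the exon 7 mice alone, and Lrrc7 most like Lmtk2 (r = 0.94) and Luzp1 (r = 0.93). The closest to the others were Pdia3 and Snx14 for Dlg1, Stag2 and Nrxn3 for Dlg3, Marcksl1 and Bbc3 for Camk2b, Bloc1s5 and Flywch2 for Camk2g, and Ube2b and Elavl2 for Camk2d, at r between 0.77 and 0.95.

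The promoters of Dlg2 and Lrrc7, which differed most between lines, are shown beside that of Dlg4, whose line difference was the smallest of the 9 under the scaling used here and was -0.80 with length and GC trends removed and 0.57 with quantile normalization. Each is the most upstream window in the RefSeq table on GRCm38.p6, 250 bases before to 50 after a start, 5′ to 3′ on the gene's strand, with CpG dinucleotides in capitals: chr7:91090536-91090835 on the plus strand (Dlg2), chr3:158561712-158562011 on the minus strand (Lrrc7) and chr11:70016953-70017252 on the plus strand (Dlg4).
Dlg2: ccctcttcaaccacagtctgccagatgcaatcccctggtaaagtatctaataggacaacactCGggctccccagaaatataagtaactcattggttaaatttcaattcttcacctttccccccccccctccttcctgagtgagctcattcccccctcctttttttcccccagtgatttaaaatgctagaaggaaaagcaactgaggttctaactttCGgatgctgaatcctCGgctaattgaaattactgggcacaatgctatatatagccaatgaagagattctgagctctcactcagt
Lrrc7: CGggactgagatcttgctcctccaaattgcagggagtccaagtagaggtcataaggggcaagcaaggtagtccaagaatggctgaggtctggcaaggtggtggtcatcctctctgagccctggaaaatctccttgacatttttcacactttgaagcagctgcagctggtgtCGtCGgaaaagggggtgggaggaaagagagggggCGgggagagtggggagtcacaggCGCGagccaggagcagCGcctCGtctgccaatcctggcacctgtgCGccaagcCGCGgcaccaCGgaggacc
Dlg4: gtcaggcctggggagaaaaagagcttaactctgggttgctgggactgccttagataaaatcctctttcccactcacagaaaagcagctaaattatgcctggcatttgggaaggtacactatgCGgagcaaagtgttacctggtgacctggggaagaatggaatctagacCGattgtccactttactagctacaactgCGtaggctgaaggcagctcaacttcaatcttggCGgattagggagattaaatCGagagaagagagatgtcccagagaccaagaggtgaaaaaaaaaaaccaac
The window of Dlg2 holds 3 CpG, that of Lrrc7 12 and that of Dlg4 5, where the median of all 32851 promoter windows was 7 (quartiles 3 to 20). Searched on both strands, the E-box CANNTG was found 2 times in Dlg2, 3 times in Lrrc7 and 2 times in Dlg4, and at least once in 72.3% of all windows. The GC box GGGCGG was found once in Lrrc7 and not in the other two (35.7% of all windows), and the cyclic AMP element TGACGTCA (1.79%), its shorter form TGACG, which lies within it (20.8%), and TATAAA (13.6%) in none of the 3. Windows were in the table for 7 of the 9 genes, with 3 each for Dlg2 and Dlg4, so that other starts of these genes are not shown. The Dlg2 window lies inside the gene as annotated in GENCODE, which begins at chr7:90476672, and is not at its first annotated start.

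The partners of PSD-95 in the density, mainly regulators of small GTPases, gave 0 of 14 calls in either knockout comparison, with median log2 fold changes of 0.04 (exon 6-7) and -0.0045 (exon 7). Among those with the smallest p were Sipa1l1 (SPAR, a Rap regulator; 0.16 for exon 6-7 and -0.15 for exon 7) and Rasgrf2 (an exchange factor; -0.22 in the exon 7 line). Between the wild types of the 2 lines 66.5% of all genes passed, 33.7% as higher, with differences that ran with transcript length. Nothing particular to this list or those below is read from counts of calls. Of the 14 genes 13 passed, 11 higher and 2 lower in the exon 7 line (median 0.96). Among those higher were Rasgrf2 (1.58), Sipa1l1 (1.58), Nos1 (1.56), Adam22 (1.49), Kalrn, Cnksr2, Iqsec1, Rasgrf1, Iqsec2 and Lgi1, and the lower genes were Begain (-0.83) and Cript (-0.78).

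Calmodulin genes and the other calmodulin-dependent kinases also gave 0 of 14 calls in either knockout comparison, with medians of -0.09 and -0.0050. The smallest p values were those of Calm3 (-0.16) and Nrgn (neurogranin, which binds calmodulin without calcium; -0.22) in the exon 6-7 line and of Camkk2 (-0.18) and Camk1g (-0.16) in the exon 7 line. Between the wild types 11 passed, 2 higher (Camk4, 1.30, and Camk1d, 1.28) and 9 lower in the exon 7 line. Lower were Nrgn (-1.26), the CaMKII inhibitor genes Camk2n2 (-1.10) and Camk2n1 (-0.75), Camk1, Pcp4, Camkv, Calm3, Calm2 and Camkk1. These 9 were lower in the line in which Camk2a and Camk2d were higher, and a link between them was not tested. Over all genes the line difference ran with transcript length (Spearman correlation 0.66). Camk2d (0.27) did not pass with length and GC trends removed.

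The phosphatases and kinase anchors of the spine, which oppose or position CaMKII, gave 0 of 11 calls in either knockout comparison (medians 0.04 and 0.00095). The smallest p values were those of Ppp1ca (-0.12) and Ppp3cb (0.13) in the exon 6-7 line and of Ppp3ca (0.07) and Ppp1r9a (-0.05) in the exon 7 line. Between the wild types Ppp1r9a (neurabin, 1.59), Akap5 (an anchor that binds PSD-95, 1.49), Ppp3cb, Ppp1cb and Ppp3ca were higher and Ppp1r1a (-1.24) and Ppp1ca (-0.62) lower.

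Palmitoylation holds PSD-95 at the membrane, and its enzymes gave 0 of 10 calls in either knockout comparison (medians -0.04 and 0.01). The smallest p values were those of Zdhhc3 (-0.15) and Zdhhc5 (0.15) in the exon 6-7 line and of Zdhhc3 (0.13) and the depalmitoylase gene Abhd17a (0.19) in the exon 7 line. Between the wild types Zdhhc5 (1.11) and Zdhhc17 (0.63) were higher and Abhd17a (-1.67), Zdhhc7 (-0.46) and Zdhhc3 (-0.25) lower.

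Other scaffolds of the guanylate kinase, L27 and LAP classes, the relatives of the Dlg genes and of Lrrc7, gave 0 of 14 calls in either knockout comparison (medians 0.02 and -0.06). The smallest p values were those of Lin7b (-0.28) and Dlg5 (0.20) in the exon 6-7 line and of Magi1 (-0.13) and Lin7b (0.13) in the exon 7 line. Between the wild types Cask (1.83), Magi2 (1.60), Erbin (1.24), which like densin is a LAP protein, Lin7c, Lin7a, Magi3, Magi1, Dlg5 and Mpp2 were higher, and Lin7b (-1.99) and Scrib (-0.45) lower. The medians over all genes tested were -0.0018 in the exon 6-7 knockouts, -0.0083 in the exon 7 knockouts and -0.0040 between the wild types.

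Cell type markers differed between the lines as well, and their part in the line differences of the 9 genes was not tested. Counts of markers called stand beside 66.5% of all genes called between the wild types. The summed level of 9 inhibitory neuron markers was 982 to 1154 FPKM in exon 6-7 mice and 600 to 808 FPKM in exon 7 mice, and that of 8 microglia markers 202 to 261 and 150.3 to 169 FPKM. The inhibitory sum is mostly somatostatin (Sst, 697 and 364 FPKM in the wild types of the exon 6-7 and exon 7 lines), and 5 of the 9 were called lower in the exon 7 wild types. General inhibitory markers went both ways. Gad2 (20.3 and 42.2 FPKM, log2 fold change 1.02) and Gad1 (95.1 and 128 FPKM, 0.43) were called higher. Slc32a1 (38.7 and 29.6 FPKM, -0.36) was called lower, and Lhx6 (0.33) and Dlx1 (-0.0021) were not called. Of 9 myelin markers 6 were called lower and 1 higher (median -0.77), of 8 microglia markers 5 lower and 1 higher (median -0.51), and of 7 astrocyte markers 3 higher and 3 lower (median 0.19). Of 10 choroid plexus and ependyma markers 3 were called higher and 1 lower (median 0.90), and of 8 markers of meninges and vessels 3 higher and 1 lower (median 0.25). For hippocampal excitatory neurons, 9 of the 11 markers passed between the wild types, 4 higher and 5 lower in the exon 7 line, with a median of -0.18. Of the summed FPKM, mitochondrial transcripts took 6.22 to 7.39% in exon 6-7 mice and 10.3 to 14.3% in exon 7 mice.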

How the data were processed

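Hippocampal RNA of 12 mice in 4 groups of 3 was measured. The authors deposited 1 table per mouse of FPKM per gene with Ensembl release 74 identifiers, per the file headers. Per the submitters' processing notes the tools were GSNAP, Cufflinks and CASAVA and the build mm10, with no role given, and the labels' protocols give TRIZOL extraction and a TruSeq poly(A) kit. FPKM keeps no read total, so the depth, and with it counting error, is unknown. No pair of libraries shared more than 0.00546% of its values.

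Unlisted genes were set to 0. Scaling factors (median of ratios, 12511 genes) ran from 0.919 to 1.07. The scale was log2(scaled FPKM + 1), for genes averaging 1 FPKM or more, and 27 small RNAs were left out. The test was limma 3.58.1 (limma-trend, R 4.3.3), two-sided, with 4 group means over 12 libraries (8 residual and 3.43 prior degrees of freedom) and Benjamini-Hochberg adjustment over 14301 genes. It was tested on simulated data first. Exact permutation tests used 20 relabellings within a line, or 400 over both. Symbols, lengths and exons came from GENCODE M21 (GRCm38; 24065 of 24590 identifiers matched), promoters from RefSeq (GRCm38.p6). Python 3.11.15 and matplotlib 3.10.9 made tables and plots. The members, gene lists and tests were chosen with earlier results of these data known. All 9 members were named, with, from each list, the genes that passed or, where none did, the 2 with the smallest p, and for each member the 2 genes most correlated with it. The values of 1 listed gene are not reported here. Alternatives were other pseudocounts, filters, scalings and fits, a term for the library sets, leaving out each mouse in turn and, added after seeing the data, the set B libraries alone.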

Additional observations from a re-analysis of the deposited data

How the results depend on the processing

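FPKM keeps no depth, so counting error is unknown, and with 3 mice against 3 no exact test within a line can go below p = 0.1. No paired analysis was possible because each mouse number occurs once and the groups share none. None of the 9 genes was called in any knockout comparison under any alternative run, and Dlg2, Lrrc7 and Camk2a kept their call and direction between the wild types of the lines under all of them. Dlg1 (0.14) and Camk2d (0.27) lost it with length and GC trends removed. Quantile normalization called 8 of 9 genes between the lines in each genotype, the cause of which was not tested.

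As deposited, the median line difference of all genes was -0.13 between the wild types, and rescaled to TPM 0.13. Beside this shift, values as deposited were -0.0812 for Dlg3 and -0.12 for Dlg4, and Camk2b (-0.32) and Camk2g (-0.27) were called; with TPM Dlg3 (0.22) was called and Camk2g was at 0.0257. Quantile normalization put Dlg3, Dlg4, Camk2b and Camk2g at 0.31, 0.57, 0.39 and 0.0711, the first 3 called. With trends removed Dlg3 was at -0.37, Dlg4 at -0.80, Camk2b at -0.27 and Camk2g at -0.18, all called. A library set term called Dlg4 (0.13).

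Several small knockout effects turned in sign, without a call. In the exon 6-7 line Dlg1 went to -0.00167 with array weights, -0.0447 with trends removed and -0.0282 in set B libraries alone, and Camk2a to -0.00977 with trends removed and -0.0146 in set B. Quantile normalization gave Dlg4 0.0306, Camk2b 0.0315 and Camk2g 0.0195, and TPM gave Camk2b 0.00249 and Camk2g 0.0176. In the exon 7 line Dlg2 and Dlg3 went to 0.00748 and 0.0212 with array weights, 0.0265 and 0.00422 with trends removed and 0.0216 and 0.0341 with TPM, and Dlg3 to 0.0106 with quantile normalization. With trends removed the difference of effects for Dlg3 was -0.000647. The log2 ratio of Dlg4 to Camk2a in the exon 7 line differed between genotypes by -0.0608 in set A and by 0.0283 between the mice of set B.

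Leaving out each mouse in turn, exon 6-7 effects ran from -0.0114 to 0.068 (Dlg1), -0.0674 to 0.0817 (Camk2a) and -0.0349 to 0.27 (Camk2d), and exon 7 effects from -0.0738 to 0.0118 (Dlg2), -0.0599 to 0.0322 (Dlg3), -0.0715 to 0.19 (Dlg4) and -0.065 to 0.16 (Camk2a). The difference of effects ran from -0.15 to 0.078 for Camk2a and -0.25 to 0.0106 for Dlg4, and the wild-type line difference of Dlg4 from -0.0531 to 0.16. Over all genes, with 1 mouse left out, the calls ranged from 1 to 7 in the exon 6-7 line (2 as reported; 7 without KO864), 0 to 3 in the exon 7 line (0 as reported), 1 to 4 for the difference (1 as reported) and 1 to 6 for the mean effect (2 as reported). In set B libraries alone they were 4, 4, 6 and 5, and over the other settings 1 to 5, 0 to 1, 1 to 3 and 2 to 4.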
